A study of Mus musculus with 24 samples.

Results

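The genes described here are 10 genes of cytokine signalling through signal transducers and activators of transcription (STATs): the feedback inhibitors Socs1, Socs2, Socs3 and Cish, the transcription factors Stat3, Stat5a, Stat5b and Stat6, and the kinases Pim1 and Pim2. They were taken from a list of gene symbols that was chosen with earlier results of these data known. All 10 were found once each among the 27179 gene identifiers of the count table. The RNA came from lymphocytes sorted out of the colon of Nmur1iCre-eGFP mice, in which the gene for the neuromedin U receptor also drives a Cre recombinase and green fluorescent protein (eGFP). The 3 sorted populations were eGFP-bearing group 2 innate lymphoid cells (ILC2), eGFP-bearing CD4 T cells (NMUR1+ cells below) and CD4 T cells that lacked eGFP (NMUR1- cells below). All mice carried the reporter allele and had drunk 3% DSS, dextran sulfate sodium, a chemical that damages the gut lining, for 5 days and then water for 3 days, so no group without the allele or without injury entered. The mice were injected intraperitoneally every other day with the neuropeptide neuromedin U (NMU) or with phosphate-buffered saline (PBS). The 6 groups were ILC2 of NMU mice, ILC2 of PBS mice, NMUR1+ cells of NMU mice, NMUR1+ cells of PBS mice, NMUR1- cells of NMU mice and NMUR1- cells of PBS mice. Each held 4 libraries. By the sample labels mice 1 to 4 received NMU and PBS was given to mice 5 to 8, whereas the design text counts 3 mice per treatment.

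Cytokine receptors without a kinase of their own signal through Janus kinases (JAKs), which phosphorylate STAT proteins that then dimerise, enter the nucleus and bind DNA. IL-2, IL-7 and TSLP act largely through STAT5, IL-4 and IL-13 through STAT6, and IL-6, IL-10 and IL-21 largely through STAT3, so ILC2 and T cells use all of these factors. Cish, Socs1, Socs2, Socs3, Pim1 and Pim2 are themselves induced by cytokines, the first 4 encoding proteins that dampen the receptor or its kinase and the last 2 encoding kinases that favour survival and growth.

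STAT dimers bind the palindrome TTCNNNGAA, which reads the same on both strands. Promoter windows of RefSeq (build GRCm38.p6, 250 bases before to 50 bases after an annotated start) were found for 9 of the 10 genes. The palindrome lay in the windows of Cish and Socs3 and in none of the windows found for Socs1, Stat3, Stat5a, Stat5b, Stat6, Pim1 and Pim2. It is in 8.30% of all 32851 promoter windows, and the form with 1 more spacer base that STAT6 prefers, TTCNNNNGAA, is in 6.95% of all windows and in none of those of the 9 genes. The stretches that hold the matches are shown because Cish and Socs3 differed in opposite directions between ILC2 and T cells, with the matches in capitals.
Cish, chr9:107296654-107296683, plus strand: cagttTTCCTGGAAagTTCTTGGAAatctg
Socs3, chr11:117969501-117969530, minus strand: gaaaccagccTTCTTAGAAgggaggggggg
Counted from the annotated start at 0, the Cish matches TTCCTGGAA and TTCTTGGAA begin at 0 and 11, and the Socs3 match TTCTTAGAA begins at -154. GENCODE M21 places the Cish window within an exon of a transcript that starts farther upstream, and the Socs3 start used lies inside that gene's annotated extent, so these distances hold for the RefSeq starts used. A match of letters is not evidence of binding.

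Total counts per library ran from 8485266 to 17854961. Nmur1 averaged 234.5 ± 56.6 CPM (counts scaled to a common library size) in ILC2, against 41.2 ± 24.2 CPM in NMUR1+ cells and 4.37 ± 2.55 CPM in NMUR1- cells (SD, n = 8 each). The library labelled NMUR1+ of mouse 1 went against its label, with 6.14 CPM of Nmur1, below the NMUR1- libraries of mouse 1 (7.19 CPM) and mouse 4 (7.84 CPM). The other 7 NMUR1+ libraries held 15.4 to 75.3 CPM, and NMUR1- libraries 1.60 to 7.84 CPM. Without mouse 1 every call of the 10 genes between the populations was the same. Cd3e, a chain of the T cell receptor complex, was at 0 to 12.2 CPM in ILC2 libraries, and at 698 CPM or more in every T cell library. Foxp3, which defines regulatory T cells, had a median of 0 CPM in ILC2, 264.5 CPM in NMUR1+ cells and 147.9 CPM in NMUR1- cells. RNA of other cells was present: immunoglobulin genes took 0.785 to 30.4% of the counts of NMUR1+ libraries, 0.148 to 5.59% of NMUR1- libraries and 0.027 to 7.94% of ILC2 libraries. The 11 macrophage and dendritic cell markers summed to 6379 to 16440 CPM in NMUR1+ libraries, 1744 to 4731 CPM in NMUR1- libraries and 1641 to 6707 CPM in ILC2 libraries.

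ILC2 were first set against the T cells, over both treatments. Cish, Socs1 and Socs2 were higher in ILC2 than in either T cell population, whereas Socs3 was lower. The kinases Pim1 and Pim2 and the factor Stat6 were also higher in ILC2, and Stat5a, Stat5b and Stat3 were lower. All 10 genes passed the edgeR test in both comparisons, 6 higher and 4 lower in ILC2, against a background of 38.6% of all 13509 genes tested for ILC2 over NMUR1+ cells and 40.5% for ILC2 over NMUR1- cells. The genes higher in ILC2 made up 15.1% and 16.4% of all genes and those lower 23.5% and 24.1%. The median log2 fold change was 0.74 for the 10 genes against NMUR1+ cells, beside -0.11 for all genes, and 0.58 against NMUR1- cells, beside -0.12 for all genes. Both comparisons use the same ILC2 libraries, and in bulk RNA fewer cells of a type cannot be told apart from less RNA per cell.

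**Figure D1:**
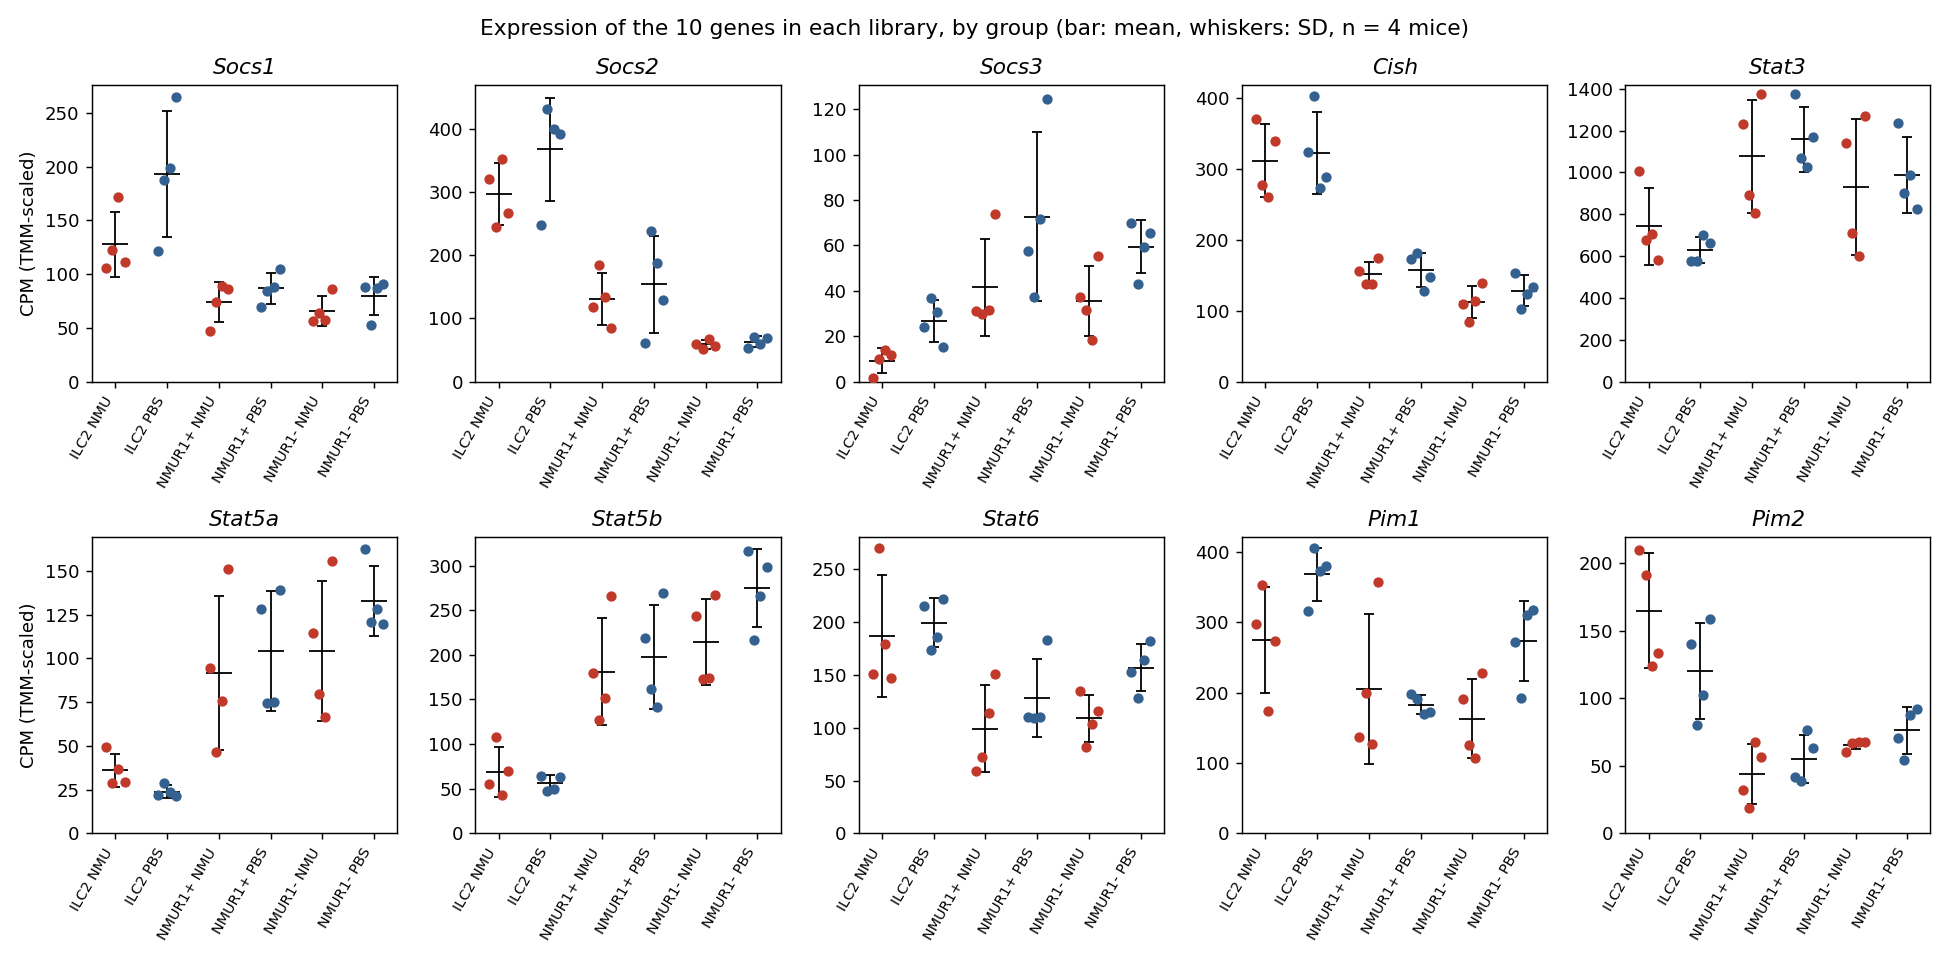
CPM (vertical axes, linear from 0) of each of the 10 genes in the 24 libraries, 1 point per mouse, with NMU groups in red and PBS groups in blue; bars give the mean and whiskers the SD of 4 mice. Socs1, Socs2 and Cish stand higher in the ILC2 groups, Stat5a and Stat5b lower, and Socs3 is lowest in ILC2 of NMU mice (1.48 to 13.7 CPM).

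Cish encodes CIS, which binds activated receptors of the IL-2 family and is a direct target of STAT5 (gene 12700, protein coding, GRCm38.p6 chromosome 9, 107296659 to 107302784). Cish ran from 259.8 to 402 CPM in ILC2 with a median of 306 CPM, against 127 to 180.7 CPM with a median of 151.5 CPM in NMUR1+ cells and 84.2 to 153.6 CPM with a median of 118 CPM in NMUR1- cells. Every ILC2 library thus lay above every T cell library. Its log2 fold change was 1.04 (SE 0.12, edgeR adjusted p = 3.6e-07) over NMUR1+ cells and 1.40 (SE 0.12, edgeR adjusted p = 2.77e-09) over NMUR1- cells. Antisense transcripts Gm17040 and Gm17041 overlap 4.07% and 7.46% of its exon bases, and their reads cannot be told apart without strand.

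Socs2 encodes an adaptor of a ubiquitin ligase that restrains growth hormone and other STAT5-coupled receptors (gene 216233, protein coding, chromosome 10, 95383903 to 95417321). Socs2 ran from 245 to 433 CPM in ILC2 (median 337 CPM), from 61.0 to 238.5 CPM in NMUR1+ cells (median 131.6 CPM) and from 51.5 to 71.2 CPM in NMUR1- cells (median 59.7 CPM). The ILC2 libraries overlapped with neither T cell population. Of the 10 genes it had the largest difference from NMUR1- cells, with a log2 fold change of 2.44 (SE 0.21, edgeR adjusted p = 2.39e-09), and it was 1.22 (SE 0.20, edgeR adjusted p = 3.87e-05) above NMUR1+ cells.

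Socs1 encodes an inhibitor of JAK activity that limits interferon-gamma and common gamma chain cytokines (gene 12703, protein coding, chromosome 16, 10783808 to 10785536). Socs1 ran from 105.9 to 265 CPM in ILC2 (median 147 CPM), from 47.4 to 104.9 CPM in NMUR1+ cells (median 85.1 CPM) and from 52.8 to 90.6 CPM in NMUR1- cells (median 74.9 CPM). The lowest ILC2 library was just above the highest NMUR1+ library. Its log2 fold changes were 0.97 (SE 0.17, edgeR adjusted p = 7.11e-05) over NMUR1+ cells and 1.12 (SE 0.17, edgeR adjusted p = 1.09e-05) over NMUR1- cells.

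Socs3 encodes the inhibitor of receptors that share gp130, and it is a STAT3 target (gene 12702, protein coding, chromosome 11, 117966079 to 117970336). Socs3 ran from 1.48 to 36.9 CPM in ILC2 (median 14.5 CPM), against 29.6 to 124.6 CPM in NMUR1+ cells (median 47.3 CPM) and 18.4 to 69.8 CPM in NMUR1- cells (median 49.3 CPM). The ranges overlapped, but within each of the 8 mice ILC2 had less Socs3 than either T cell population. Its log2 fold change was -1.80 (SE 0.34, edgeR adjusted p = 0.000226) against NMUR1+ cells and -1.55 (SE 0.34, edgeR adjusted p = 0.000867) against NMUR1- cells. Socs3 was also the most variable of the 10 genes in each population, with a coefficient of variation of 65.1% in ILC2, 57.5% in NMUR1+ cells and 37.8% in NMUR1- cells.

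**Figure D2:**
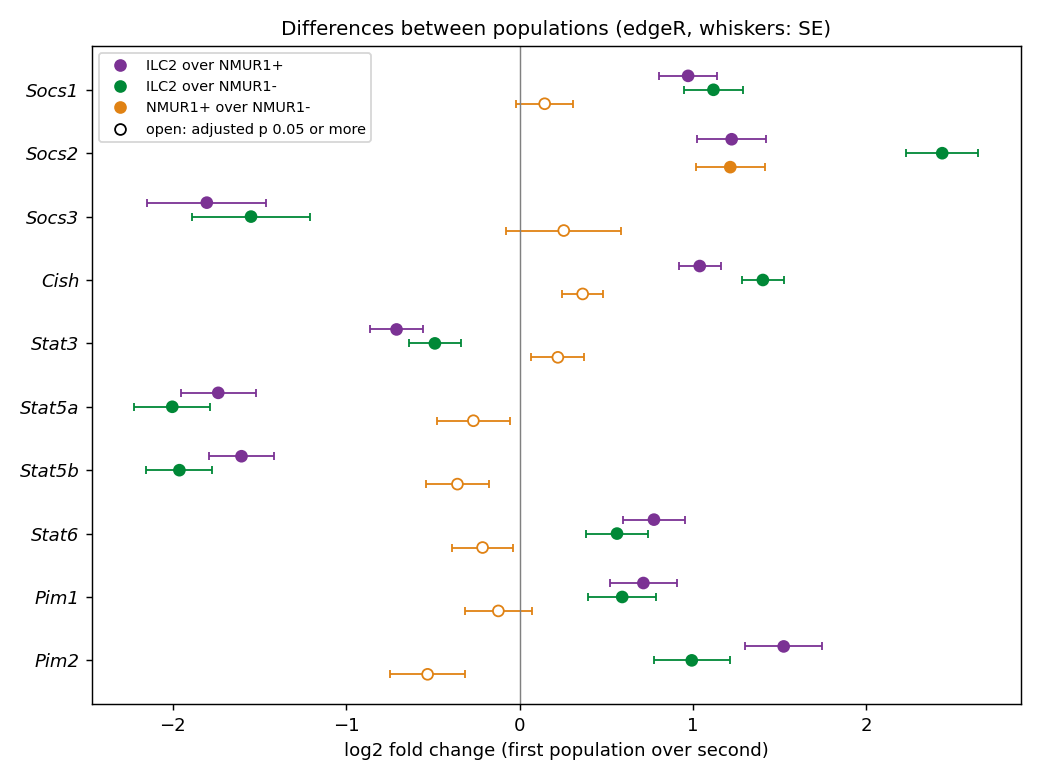
Log2 fold change between populations (horizontal axis) of the 10 genes, with the SE as whiskers, from the edgeR fit of 24 libraries; filled points passed an adjusted p of 0.05 and open points did not. All 20 points that set ILC2 against T cells are filled, and of the 10 points that set NMUR1+ against NMUR1- cells only Socs2 is.

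Stat5a, Stat5b and Stat3 are neighbours on chromosome 11 (Stat5b, gene 20851, 100780731 to 100859004; Stat5a, gene 20850, 100859351 to 100885169; Stat3, gene 20848, 100886806 to 100939594; all protein coding). Stat5b ran from 42.7 to 107.7 CPM in ILC2 (median 59.4 CPM), from 127.5 to 269.6 CPM in NMUR1+ cells (median 170.5 CPM) and from 172.5 to 317 CPM in NMUR1- cells (median 254.6 CPM). Stat5a ran from 21.4 to 49.2 CPM in ILC2 (median 28.8 CPM), from 46.4 to 150.9 CPM in NMUR1+ cells (median 85.1 CPM) and from 66.4 to 162.5 CPM in NMUR1- cells (median 120.1 CPM). Every ILC2 library held less of either gene than every T cell library, except that the highest ILC2 value of Stat5a passed the lowest value in NMUR1+ cells. The log2 fold changes in ILC2 were -1.60 (SE 0.19) and -1.96 (SE 0.19) for Stat5b and -1.74 (SE 0.22) and -2.002 (SE 0.22) for Stat5a, against NMUR1+ and NMUR1- cells in that order. Their edgeR adjusted p were 4.4e-07 and 1.8e-08 for Stat5b and 1.16e-06 and 1.22e-07 for Stat5a.

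Reads of the STAT5 pair can be uncertain, since 608 windows of 50 bases occur in transcripts of both genes, 8.21% of those of Stat5a and 10.98% of those of Stat5b. The count ratio of Stat5b to Stat5a had a geometric mean of 2.09 in ILC2 (range 1.12 to 3.76), 1.99 in NMUR1+ cells (1.70 to 2.75) and 2.10 in NMUR1- cells (1.72 to 2.62). In an exact paired permutation test over the 8 mice (two-sided, smallest possible p 0.00781) the log2 difference was 0.07 ± 0.63 between ILC2 and NMUR1+ cells (SD, exact p = 0.742), -0.01 ± 0.71 between ILC2 and NMUR1- cells (exact p = 0.977) and -0.07 ± 0.27 between NMUR1+ and NMUR1- cells (exact p = 0.453), each with an adjusted p of 0.977 over the 3 tests. A difference in the balance of the STAT5 genes was therefore not detected.

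Stat3 ran from 575 to 1005 CPM in ILC2 (median 669.2 CPM), from 807 to 1377 CPM in NMUR1+ cells (median 1118 CPM) and from 598 to 1270.0 CPM in NMUR1- cells (median 943 CPM). It was lower in ILC2 by a log2 fold change of -0.71 (SE 0.15, edgeR adjusted p = 0.000717) against NMUR1+ cells, in 8 of 8 mice, and of -0.49 (SE 0.15, edgeR adjusted p = 0.0128) against NMUR1- cells, in 7 of 8 mice. The second call was lost without mouse 4 or mouse 5 (edgeR adjusted p = 0.0630 to 0.0887).

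Stat6, the factor of IL-4 and IL-13 signalling, was the STAT gene of the 4 that was higher in ILC2 (gene 20852, protein coding, chromosome 10, 127642955 to 127660987). Stat6 ran from 147.0 to 270.3 CPM in ILC2 (median 182.6 CPM), from 59.4 to 183 CPM in NMUR1+ cells (median 110.2 CPM) and from 81.5 to 182 CPM in NMUR1- cells (median 131.6 CPM). The ranges overlapped at their ends. The log2 fold change was 0.78 (SE 0.18, edgeR adjusted p = 0.00127) over NMUR1+ cells, higher in 7 of 8 mice, and 0.56 (SE 0.18, edgeR adjusted p = 0.0136) over NMUR1- cells, higher in 8 of 8 mice, the second being lost without mouse 2 (edgeR adjusted p = 0.0786).

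Pim2, a serine/threonine kinase that sustains lymphocyte survival (gene 18715, protein coding, chromosome X, 7878306 to 7883432), ran from 79.9 to 210.2 CPM in ILC2 (median 136.9 CPM), from 18.8 to 76.6 CPM in NMUR1+ cells (median 49.1 CPM) and from 54.5 to 92.2 CPM in NMUR1- cells (median 67.7 CPM). The lowest ILC2 library lay above all NMUR1+ libraries and within the range of NMUR1- libraries. Pim2 was 1.52 higher on the log2 scale than in NMUR1+ cells (SE 0.22, edgeR adjusted p = 8.59e-06), and 0.99 higher than in NMUR1- cells (SE 0.22, edgeR adjusted p = 0.000807).

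Pim1, the related kinase first known as an oncogene in mouse lymphoma (gene 18712, protein coding, chromosome 17, 29490785 to 29496111), ran from 173.6 to 406 CPM in ILC2 (median 335 CPM), from 127.4 to 358 CPM in NMUR1+ cells (median 182.4 CPM) and from 106.8 to 318 CPM in NMUR1- cells (median 210.4 CPM). Its groups overlapped widely. The log2 fold change was 0.71 (SE 0.20, edgeR adjusted p = 0.00558) over NMUR1+ cells and 0.59 (SE 0.20, edgeR adjusted p = 0.0181) over NMUR1- cells, and the second was lost without mouse 2 or mouse 6 (edgeR adjusted p = 0.0726 to 0.0918). The antisense gene Gm26885 overlaps 14.5% of the exon bases of Pim1.

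Libraries of ILC2 and NMUR1+ cells did not overlap for 4 genes higher in ILC2 (Socs1, Socs2, Cish and Pim2; 4.09% of all genes) and 1 lower (Stat5b; 6.14%). Against NMUR1- cells this held for 3 genes higher (Socs1, Socs2 and Cish; 5.86%) and 2 lower (Stat5a and Stat5b; 8.53%). The direction was the same in all 8 mice for 8 of the 10 genes against NMUR1+ cells (20.5% of all genes) and for 9 against NMUR1- cells (24.3%). Whichever of the 15 alternatives was used against NMUR1+ cells, among them leaving out the 4 NMUR1+ libraries above 20% immunoglobulin counts, each of the 10 genes stayed past the threshold. Without mouse 1, whose library labelled NMUR1+ was low in Nmur1, the 10 log2 differences from NMUR1+ cells ran from -1.81 (Stat5a) to 1.40 (Pim2). Of the 11 macrophage and dendritic cell markers, 10 were called lower in ILC2 than in NMUR1+ cells and 3 lower than in NMUR1- cells, with median log2 differences of -2.93 and -1.03. Of all genes 23.5% and 24.1% were called lower, so the 3 against NMUR1- cells are near that share and no result about these markers. Of the 11 B and plasma cell markers, 11 were called lower than in NMUR1+ cells (median -3.45). Against NMUR1- cells 5 were called lower and 1 higher (median -0.51), beside 24.1% and 16.4% of all genes. Their part in the differences of the 10 genes was not tested.

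Set per library, ILC2 held more Cish RNA and less Stat5 RNA than T cells. The count ratio of Cish to Stat5a and Stat5b together was 2.03 to 5.25 in ILC2 (median 3.47), 0.362 to 0.791 in NMUR1+ cells (median 0.577) and 0.303 to 0.473 in NMUR1- cells (median 0.320). The ILC2 libraries did not overlap with those of T cells in this ratio, which follows from the 2 differences already given and was not tested again.

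**Figure D3:**
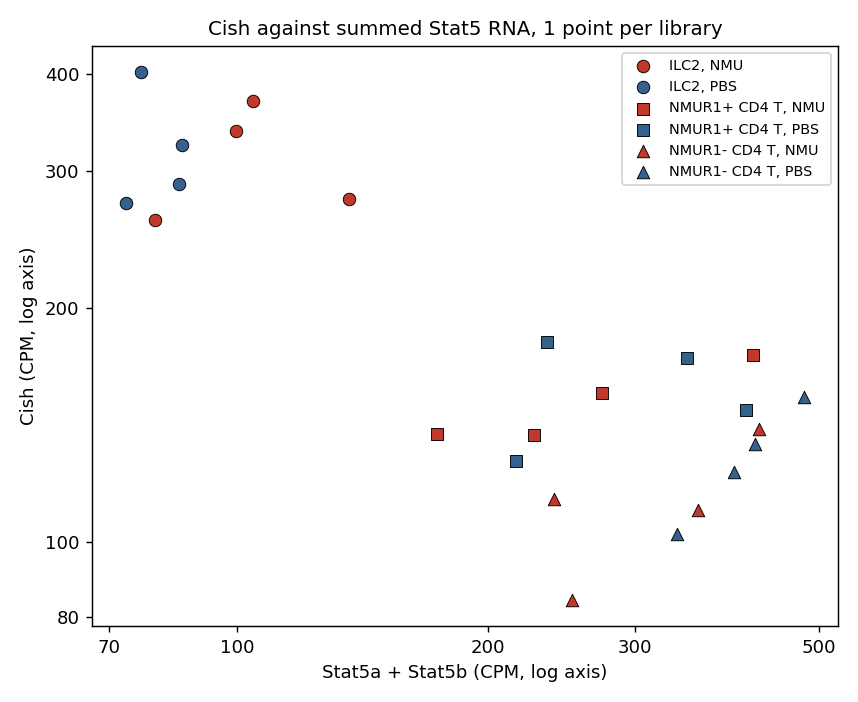
Cish (vertical axis, CPM, log scale) against the summed CPM of Stat5a and Stat5b (horizontal axis, log scale) in the 24 libraries; circles are ILC2, squares NMUR1+ cells and triangles NMUR1- cells, with NMU in red and PBS in blue. ILC2 libraries sit at the upper left, with 73.5 to 136 CPM of Stat5 RNA, and T cell libraries at the lower right, with 174 to 479 CPM.

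Levels of different genes were compared only per length, as CPM per kilobase of the union of annotated exons (GENCODE M21). In ILC2 Pim1 was highest at 95.7 ± 22.2 CPM per kilobase, followed by Stat3 at 71.9 ± 14.8, Socs1 at 55.2 ± 19.1, Pim2 at 51.0 ± 15.6, Cish at 49.3 ± 7.94, Stat6 at 43.9 ± 9.34 and Socs2 at 34.9 ± 7.69 (SD, n = 8). Stat5b at 11.3 ± 3.69, Socs3 at 6.22 ± 4.05 and Stat5a at 4.20 ± 1.30 CPM per kilobase were lowest in ILC2. The order differed in T cells, where Stat3 led with 117 ± 22.02 in NMUR1+ and 100.6 ± 25.8 in NMUR1- cells and Stat5b, at 34.2 ± 10.01 and 44.1 ± 9.69, came after Pim1, at 57.8 ± 21.2 and 64.9 ± 23.5 CPM per kilobase. At the low end Stat5a was lowest in NMUR1+ cells at 13.7 ± 5.20 and Socs2 in NMUR1- cells at 6.41 ± 0.78 CPM per kilobase. Exons that these cells do not use lengthen the union and lower such values.

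Over the 6 groups ranked by mean, few neighbours stood apart. A step larger than the SD of either neighbour, with no overlap of libraries, was found between ILC2 of NMU mice and NMUR1+ cells of PBS mice for Socs1 (127.8 ± 30.2 and 86.7 ± 14.5 CPM), for Socs2 (297 ± 49.0 and 154.1 ± 76.3 CPM) and for Cish (311 ± 51.6 and 157 ± 24.4 CPM; SD, n = 4 each). Stat5b had such a step between ILC2 of NMU mice (68.9 ± 28.2 CPM) and NMUR1+ cells of NMU mice (181.1 ± 60.2 CPM). Socs2 had a second one between NMUR1+ cells of NMU mice (130.3 ± 41.4 CPM) and NMUR1- cells of PBS mice (63.2 ± 8.35 CPM), and Socs3 one between ILC2 of NMU mice (9.22 ± 5.37 CPM) and ILC2 of PBS mice (26.8 ± 9.26 CPM). Neighbouring groups of Stat3, Stat5a, Stat6, Pim1 and Pim2 had none. The groups were put in order by the same values in which the steps were sought. The share of all genes with such a step was not counted. The number of steps is therefore no result about these genes.

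NMUR1+ were then set against NMUR1- CD4 T cells. Socs2 was the only 1 of the 10 genes to pass, beside 8.31% of all genes, and it was higher in NMUR1+ cells at 142.2 ± 58.3 CPM, against 61.1 ± 7.42 CPM in NMUR1- cells (SD, n = 8 each; log2 1.22, SE 0.20, edgeR adjusted p = 0.000401). The NMUR1+ library of mouse 5 (61.0 CPM) lay within the NMUR1- range, and the other 7 lay above it. The call was kept in all 15 alternatives, with a log2 fold change of 1.04 to 1.5, among them 1.26 without mouse 1. Socs2 also varied more between mice in NMUR1+ cells, with a coefficient of variation of 41.0%, than in NMUR1- cells, with 12.1%.

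Cish came next by p-value, at 154.0 ± 19.9 CPM in NMUR1+ cells and 119.9 ± 22.2 CPM in NMUR1- cells (log2 0.36, SE 0.12, edgeR adjusted p = 0.0597). With the mouse as a block it passed, at 0.36 (SE 0.10, edgeR adjusted p = 0.0321), and over all 15 alternatives the adjusted p ran from 0.0190 to 0.250. Pim2 was at 49.3 ± 19.7 CPM in NMUR1+ cells and 71.0 ± 12.8 CPM in NMUR1- cells (log2 -0.53, SE 0.22, edgeR adjusted p = 0.145), and Stat5b at 189 ± 55.5 and 244.5 ± 53.7 CPM (log2 -0.36, SE 0.18, edgeR adjusted p = 0.263). The other 6 genes had log2 differences from -0.27 (Stat5a) to 0.26 (Socs3) with edgeR adjusted p from 0.448 to 0.814. Immunoglobulin and macrophage RNA was higher in NMUR1+ libraries, in the amounts given above, and its part in these values was not tested.

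The effect of NMU injection was then examined in each population by itself. None of the 10 genes passed the edgeR test in ILC2 (0.66% of 11205 genes passed), in NMUR1+ cells (0.0% of 12061) or in NMUR1- cells (0.0% of 12103). Unadjusted edgeR p-values under 0.05 were found for 3 of the genes in ILC2 (Socs1, Socs3 and Pim1), 0 in NMUR1+ cells and 3 in NMUR1- cells (Socs3, Stat6 and Pim1), all lower with NMU, beside 1391, 307 and 877 of all genes. DESeq2 and limma voom also called none of the 10, while over all genes DESeq2 called 472, 2 and 21 and limma voom 73, 0 and 0. The 3 comparisons use different libraries of the same mice. A missed threshold at 4 mice per group does not show that NMU left these genes unaltered. Leaving out 1 mouse moved 22 of the 30 log2 differences by over 1.5 times or across 0.

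Socs3 had the largest difference in ILC2. It was at 1.48, 10.02, 13.7 and 11.7 CPM in ILC2 of NMU mice 1 to 4, against 24.1, 36.9, 30.7 and 15.3 CPM in ILC2 of PBS mice 5 to 8. All NMU libraries were below all PBS libraries, as was so for 4.78% of all genes, and mouse 1 stood farthest down. The log2 difference was -1.55 (SE 0.60, edgeR adjusted p = 0.319), and over 14 alternatives it ran from -1.80 to -1.19 with adjusted p from 0.0548 to 0.511. Socs3 was at 31.0, 29.6, 31.6 and 73.8 CPM in NMUR1+ cells of NMU mice, against 57.5, 37.1, 71.7 and 124.6 CPM in those of PBS mice (log2 -0.81, SE 0.40, edgeR adjusted p = 1.00). The NMUR1+ difference was -0.42 without mouse 8, -1.25 without mouse 4 and -1.40 without the 4 immunoglobulin-rich libraries (edgeR adjusted p = 0.989). The last value rests on mice 2 and 3 with NMU against mice 6 and 8 with PBS only. Its levels in NMUR1- cells were 37.1, 31.5, 18.4 and 55.5 CPM with NMU, against 69.8, 43.1, 59.4 and 65.5 CPM with PBS (log2 -0.75, SE 0.29, edgeR adjusted p = 0.642). In both T cell populations the libraries of NMU and PBS mice overlapped.

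RNA of other cell types was found in varying amounts in the same libraries. Immunoglobulin genes took 0.027 to 0.869% of counts in ILC2 of NMU mice and 0.666 to 7.94% in ILC2 of PBS mice. The 10 fibroblast markers summed to 1.39 to 44.3 CPM in ILC2 of NMU mice, with Lum and Mfap5 at 0, and to 13.7 to 424 CPM in ILC2 of PBS mice. For the same markers the sums were 31.3 to 165.5 CPM with NMU and 95.5 to 447 CPM with PBS in NMUR1+ cells, and 11.4 to 79.6 CPM with NMU and 60.4 to 240.0 CPM with PBS in NMUR1- cells. Of those tested, 0 of 7 were called in ILC2, 0 of 10 in NMUR1+ and 0 of 9 in NMUR1- cells. Their median log2 differences were -3.13, -1.15 and -1.56 in that order. Of all genes 0.66%, 0.0% and 0.0% were called. Macrophage and dendritic cell markers summed to 1927 to 3770.0 CPM in ILC2 of NMU mice, with Itgax at 0, and to 1641 to 6707 CPM in ILC2 of PBS mice. Of these 0 of 10 tested in ILC2 were called, and of the B and plasma cell markers 0 of 9. Their median log2 differences were -1.79 and -2.35. The 8 epithelial markers summed to 38.4 to 65.0 CPM in ILC2 of NMU mice, with Muc2 at 0, and to 15.4 to 30.6 CPM in ILC2 of PBS mice, without overlap. Of the 4 of them tested there, 1 was called higher with NMU, beside 0.66% of all genes called in either direction. Their median log2 difference was -0.46. In NMUR1+ cells the epithelial sums were 17.7 to 49.2 CPM with NMU and 40.3 to 196.5 CPM with PBS, and in NMUR1- cells 11.6 to 96.4 CPM with NMU and 5.71 to 152.9 CPM with PBS. The 6 regulatory T cell markers summed to 2699 to 3880.0 CPM in ILC2 of NMU mice, with Foxp3 at 0. In ILC2 of PBS mice they summed to 2166 to 2868 CPM. Of the 5 tested, 2 were called higher with NMU, beside 0.66% of all genes called in either direction. This list holds Il2ra, which was higher in ILC2 (979.6 CPM) than in NMUR1+ (728 CPM) and NMUR1- cells (464 CPM). Its sum is therefore no measure of RNA from regulatory T cells in ILC2 libraries. The part of RNA of other cell types in the values of Socs3 and of the other 9 genes was not tested.

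The other feedback genes had smaller differences. Socs1 was at 105.9, 122, 172 and 110.9 CPM in ILC2 of NMU mice, against 121.5, 187, 199 and 265 CPM in ILC2 of PBS mice (log2 -0.62, SE 0.25, edgeR adjusted p = 0.333). Mice 2 and 3 of the NMU group were above mouse 5 of the PBS group, so the groups overlapped. Socs2 averaged 297 ± 49.0 CPM in ILC2 of NMU mice and 369 ± 81.8 CPM in ILC2 of PBS mice (log2 -0.33, SE 0.19, edgeR adjusted p = 0.546). Cish averaged 311 ± 51.6 CPM in ILC2 of NMU mice and 322 ± 57.6 CPM in ILC2 of PBS mice (log2 -0.07, SE 0.16, edgeR adjusted p = 0.915), the smallest difference of the 10 genes in these cells. In T cells the log2 differences of Socs1, Socs2 and Cish lay between -0.28 and -0.06.

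The STAT genes had positive differences in ILC2 except Stat6. Stat5a was at 49.2, 28.6, 36.9 and 29.6 CPM in ILC2 of NMU mice, against 21.7, 29.0, 23.4 and 21.4 CPM in ILC2 of PBS mice (log2 0.57, SE 0.27, edgeR adjusted p = 0.422). Only mouse 6 of the PBS group reached into the NMU range. Stat5b, at 68.9 ± 28.2 CPM in ILC2 of NMU mice and 56.3 ± 8.77 CPM in ILC2 of PBS mice, had a log2 difference of 0.27 (SE 0.28, edgeR adjusted p = 0.787), which was -0.03 without mouse 2. Stat3 was at 741.5 ± 183.7 and 629 ± 62.9 CPM in ILC2 of NMU and PBS mice (log2 0.21, SE 0.17, edgeR adjusted p = 0.686), which was 0.04 without mouse 1. Stat6 was at 187 ± 57.5 CPM in ILC2 of NMU mice and 199 ± 23.2 CPM in ILC2 of PBS mice (log2 -0.11, SE 0.20, edgeR adjusted p = 0.893), and its difference was -0.34 without mouse 2 and -0.02 without mouse 1 or mouse 4.

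Stat6 had the smallest p-value of the 10 genes in NMUR1- cells. It was at 134.9, 81.5, 103.2 and 115.5 CPM with NMU, against 152.9, 128.4, 164.6 and 182 CPM with PBS (log2 -0.54, SE 0.16, edgeR adjusted p = 0.577). The libraries of mouse 1 with NMU and mouse 6 with PBS overlapped. Stat5a and Stat5b were at -0.36 (SE 0.24) and -0.37 (SE 0.17) on the log2 scale and Stat3 at -0.09 (SE 0.23), with edgeR adjusted p from 0.691 to 0.958. In NMUR1+ cells the 4 STAT genes had log2 differences from -0.37 (Stat6, SE 0.29) to -0.11 (Stat3, SE 0.18), all with an edgeR adjusted p of 1.00. Without the 4 immunoglobulin-rich NMUR1+ libraries they were -0.81 for Stat5a, -0.65 for Stat6, -0.63 for Stat5b and -0.40 for Stat3, each with an edgeR adjusted p of 0.989. These values rest on mice 2 and 3 with NMU against mice 6 and 8 with PBS only.

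Pim1 was at 297, 354, 173.6 and 273.5 CPM in ILC2 of NMU mice, against 316, 406, 373 and 379.8 CPM in ILC2 of PBS mice (log2 -0.45, SE 0.20, edgeR adjusted p = 0.385), and the difference was -0.28 without mouse 3. Its levels in NMUR1- cells were 191.6, 126, 106.8 and 228 CPM with NMU, against 272, 192.8, 310.5 and 318 CPM with PBS (log2 -0.75, SE 0.25, edgeR adjusted p = 0.588). In both populations 1 NMU library reached above the lowest PBS library. In NMUR1+ cells Pim1 was at 205 ± 106.5 CPM with NMU and 183.2 ± 13.9 CPM with PBS (a log2 difference of 0.17, SE 0.29, edgeR adjusted p = 1.00), which became -0.26 without mouse 4. Pim2 was at 165 ± 42.4 CPM in ILC2 of NMU mice and 120.4 ± 35.8 CPM in ILC2 of PBS mice (log2 0.43, SE 0.25, edgeR adjusted p = 0.546; 0.28 without mouse 6), and its log2 differences were -0.33 (SE 0.37) in NMUR1+ cells, and -0.22 (SE 0.16) in those without eGFP.

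**Figure D4:**
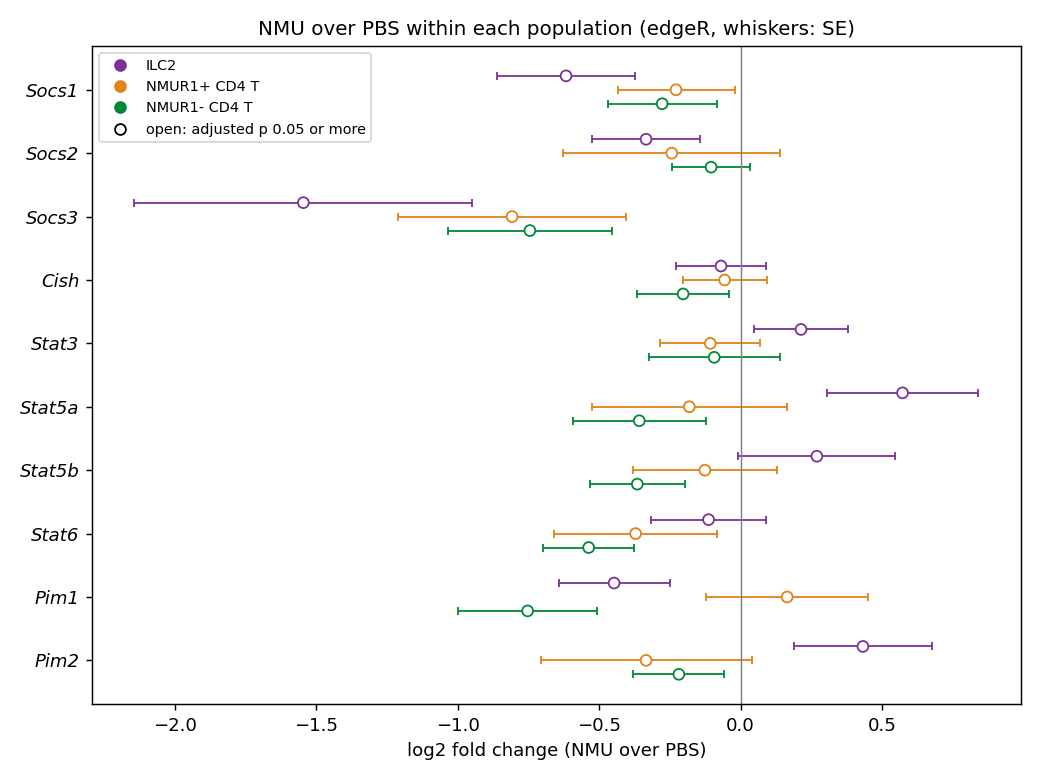
Log2 fold change of NMU over PBS (horizontal axis) of the 10 genes in ILC2, NMUR1+ and NMUR1- cells, with the SE as whiskers, from edgeR fits of 8 libraries each; open points did not pass an adjusted p of 0.05. All 30 points are open, and the farthest from 0 is Socs3 in ILC2 (-1.55).

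Whether NMU effects differed between ILC2 and T cells was tested directly. None of the 10 genes passed against NMUR1+ cells (0.725% of all 13509 genes passed) or against NMUR1- cells (0.533%). The unadjusted edgeR p was under 0.05 for 0 of the genes in the first comparison and for 1, Stat5a, in the second, beside 1789 and 1528 of all genes. DESeq2 and limma voom called 0 of the 10 as well, and 516 and 24 of all genes against NMUR1+ cells and 387 and 21 against NMUR1- cells. With the mouse as a block 46 and 36 of all genes passed, and again none of the 10. The difference of Stat5a was 0.95 (SE 0.42, edgeR adjusted p = 0.380) against NMUR1- cells and 0.78 (SE 0.42, edgeR adjusted p = 0.453) against NMUR1+ cells. Socs3, with the largest effect in ILC2, differed by -0.79 (SE 0.67) and -0.72 (SE 0.67) from the effects in NMUR1- and NMUR1+ cells, with edgeR adjusted p of 0.767 and 0.728.

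Within groups the genes varied together in part. After the mean of each group was taken off log2 CPM, Stat3 and Stat5a were most alike among the 45 pairs (Pearson r 0.80, Spearman rho 0.80), followed by Stat5b and Stat6 (r 0.68, rho 0.67) and Stat5b and Pim1 (r 0.63, rho 0.55). Socs2 ran against Stat5b (r -0.62, rho -0.75). Cish was most alike to Stat5a (r 0.52, rho 0.48) and Pim1 (r 0.50, rho 0.50), and with the other feedback genes it had r of -0.02 (Socs1), -0.01 (Socs3) and -0.19 (Socs2). These values describe 24 libraries, 3 from each of 8 mice, that share depth, sort and admixed cells. Exons of Stat3 and Stat5a overlap by 72 bases on opposite strands, which a kit that does not mark strand cannot separate. This is 0.76% of the exon bases of Stat3 and 1.01% of those of Stat5a.

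Among 7901 genes searched, the gene most like each of the 10 by the same measure was Odc1, the first enzyme of polyamine synthesis, for Cish (r 0.83, then Fam110a, 0.82), and Rbck1, a subunit of the linear ubiquitin ligase, for Socs1 (r 0.84, then B4galt3, 0.75). Cpm led for Socs2 (r 0.75, then Dpp4, 0.73) and Lrrc47 for Socs3 (r 0.90, then Chpf, 0.89). Adora2a, the adenosine A2a receptor, led for Stat3 (r 0.92, then Kctd12, 0.89), Itpkb for Stat5a (r 0.88, then Ubald1, 0.86), Chtf8 for Stat5b (r 0.86, then Fam160a2, 0.84) and Spata2 for Stat6 (r 0.84, then Arhgdia, 0.83). Pacs1 led for Pim1 (r 0.85, then Wwp2, 0.83) and Spr for Pim2 (r 0.78, then Epb41, 0.75). Spearman rho for these pairs ran from 0.69 to 0.88. Each gene named is the highest or next highest of 7901 over 24 libraries, so the search itself favours high r. The r that such a search reaches by chance was not computed.

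The rest of the pathway was read from lists of its genes. Of the 4 other SOCS genes, 1 was called in each comparison between populations. Of all genes 38.6% and 40.5% passed for ILC2 against NMUR1+ and NMUR1- cells and 8.31% between the T cell populations. The count is therefore no result about the list. The gene called was Socs5. It was at 182.4 ± 32.3 CPM in ILC2, against 40.3 ± 16.4 CPM in NMUR1+ cells (log2 2.19, SE 0.23, edgeR adjusted p = 9.04e-08) and 23.8 ± 8.29 CPM in NMUR1- cells (log2 2.93, SE 0.24, edgeR adjusted p = 1e-09). It was also higher in NMUR1+ than in NMUR1- cells (log2 0.74, SE 0.22, edgeR adjusted p = 0.0409), a call lost without mouse 1, 3, 7 or 8. Of the other inhibitors, 4 of 9 passed in both comparisons of ILC2 with T cells, near the background of 38.6% and 40.5% of all genes, so the count is no result about the list. The adaptor gene Sh2b3 (18.8 ± 11.6 CPM in ILC2, beside 5.49 ± 3.13 CPM in NMUR1+ cells and 6.03 ± 2.36 CPM in NMUR1- cells) and the phosphatase gene Ptpn2 were higher in ILC2. The phosphatase genes Ptpn1 (208 ± 40.3 CPM in ILC2, beside 351 ± 49.8 CPM in NMUR1+ cells and 331 ± 31.9 CPM in NMUR1- cells) and Ptpn6 were lower in ILC2.

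Of the other STAT genes, Stat4 was higher in ILC2 than in NMUR1+ cells (log2 0.33, SE 0.08, edgeR adjusted p = 0.00273) and lower in NMUR1+ than in NMUR1- cells (log2 -0.29, SE 0.08, edgeR adjusted p = 0.0342). Stat2 was lower in ILC2 than in NMUR1+ cells (log2 -0.62, SE 0.24, edgeR adjusted p = 0.0481). Of the 4 JAK genes, 1 passed in each comparison of ILC2 with T cells, beside 38.6% and 40.5% of all genes, so the count is no result about the list. This gene, Jak2, had 286 ± 80.5 CPM in ILC2, against 224 ± 17.9 CPM in NMUR1+ cells (log2 0.33, edgeR adjusted p = 0.0371) and 171.5 ± 33.2 CPM in NMUR1- cells (log2 0.72, edgeR adjusted p = 6.63e-05). Leaving out single mice ended the calls of Stat2 (6 of the 8 mice), of Stat4 between the T cell populations (5 mice) and of Jak2 against NMUR1+ cells (4 mice). Without the 4 NMUR1+ libraries above 20% immunoglobulin counts the calls of Stat2 and Jak2 against NMUR1+ cells and those of Socs5 and Stat4 between the T cell populations were lost too.

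Of 28 cytokine receptor genes, 19 passed against NMUR1+ cells (6 higher and 13 lower in ILC2) and 19 against NMUR1- cells (9 higher and 10 lower), beside 38.6% and 40.5% of all genes. In ILC2 libraries alone 22 of the 28 passed the count filter, beside 27 in NMUR1+ and 27 in NMUR1- libraries alone. Some genes thus entered through the T cells where they are high. The counts were partly fixed by the filter and are no result about the list. Il7r, at 773 ± 150.4 CPM in ILC2, beside 368 ± 89.5 CPM in NMUR1+ cells and 266 ± 34.9 CPM in NMUR1- cells, encodes CD127, on which the ILC2 were sorted, so its difference is no finding. Il10ra was higher in ILC2 (95.4 ± 20.6 CPM) than in NMUR1+ (38.5 ± 11.3 CPM) and NMUR1- cells (10.2 ± 3.95 CPM), and so was Ifngr2. Il21r was lower in ILC2 at 46.7 ± 27.5 CPM, against 790 ± 225 CPM in NMUR1+ cells and 792 ± 273 CPM in NMUR1- cells, and Ifngr1 and the IL-12 receptor gene Il12rb2 were lower as well. Il12rb2 had 24 counts over all ILC2 libraries. Between the T cell populations 12 of 28 passed, beside 8.31% of all genes, 11 higher in NMUR1+ cells, among them Il10ra (log2 1.93, SE 0.22, edgeR adjusted p = 6.2e-06) and Csf2rb, and 1 lower, Il12rb2 (log2 -1.77, SE 0.41, edgeR adjusted p = 0.00941, lost without the 4 immunoglobulin-rich NMUR1+ libraries). The 11 macrophage and dendritic cell markers had a median log2 difference of 1.96 in the same direction, beside -0.01 for all genes. The part of RNA of such cells in these receptor values was not tested.

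Of 17 cytokine genes listed, 14 were tested, and 12 passed against NMUR1+ cells (9 higher and 3 lower in ILC2). All 14 passed against NMUR1- cells (11 higher and 3 lower), where 38.6% and 40.5% of all genes did in the 2 comparisons. In NMUR1- libraries alone only 6 of the 17 passed the count filter, beside 13 in ILC2 libraries alone. Genes thus entered through the population where they are high, so the counts were partly fixed by the filter and are no result about the list. Osm, which signals through gp130 and is itself a STAT5 target, was at 66.9 ± 25.9 CPM in ILC2, beside 15.2 ± 5.33 CPM in NMUR1+ cells and 10.3 ± 2.34 CPM in NMUR1- cells. Csf2 (16.1 ± 9.80 CPM in ILC2), Il2 (35.7 ± 35.4 CPM) and Il5 were among those higher, and Il10, Ifng and Il21 were lower. Il21, whose product activates STAT3, had 0 counts in all ILC2 libraries, 169 over the NMUR1+ and 2380 over the NMUR1- libraries. With a floor of 3 counts over the ILC2 libraries it was at least 57.2-fold higher in NMUR1+ and at least 650-fold higher in NMUR1- cells, counting error only.

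Genes known as targets of these STATs did not share a direction in ILC2. Of 12 STAT5 targets outside the 10 genes, 8 passed against NMUR1+ cells (6 higher and 2 lower in ILC2) and 8 against NMUR1- cells (7 higher and 1 lower), with 38.6% and 40.5% as the background. Their median log2 differences were 0.30 and 0.79, beside -0.11 and -0.12 for all genes. The survival gene Bcl2 was at 101.1 ± 35.8 CPM in ILC2 and 13.2 ± 9.77 CPM in NMUR1+ cells (log2 2.97, SE 0.34, edgeR adjusted p = 3.73e-07). Myc was at 337 ± 187 CPM in ILC2, against 138.6 ± 30.4 CPM in NMUR1+ cells and 87.2 ± 17.4 CPM in NMUR1- cells. Il2ra, which encodes the alpha chain of the IL-2 receptor, was at 979.6 ± 187 CPM in ILC2 and 464 ± 91.6 CPM in NMUR1- cells. The cytotoxic protease gene Gzmb was lower in ILC2 at 18.1 ± 10.6 CPM, against 1493 ± 732 CPM in NMUR1+ cells and 717 ± 217 CPM in NMUR1- cells, and Mcl1 was lower than in NMUR1+ cells (log2 -0.70, SE 0.14, edgeR adjusted p = 0.00029). Between the T cell populations 3 of the 12 passed, beside 8.31% of all genes. Il2ra (log2 0.65, SE 0.13, edgeR adjusted p = 0.00315) and Myc (log2 0.66, SE 0.175, edgeR adjusted p = 0.0201) were higher in NMUR1+ cells. Bcl2 was lower there (log2 -1.10, SE 0.32, edgeR adjusted p = 0.0343). The call of Myc was lost without mouse 1, 3, 4 or 8, and that of Bcl2 without mouse 1, 2, 4, 5, 6 or 8.

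Of 4 STAT3 targets all passed in both comparisons, against 38.6% and 40.5% of all genes. Junb was higher in ILC2, and Hif1a (485.5 ± 126.8 CPM in ILC2, beside 1333 ± 195 CPM in NMUR1+ cells and 1680.0 ± 287 CPM in NMUR1- cells), Batf and Bcl3 were lower. NMU against PBS in ILC2 called 1 gene of all the pathway lists, Junb, lower with NMU (log2 -0.69, SE 0.10, edgeR adjusted p = 0.0169), a call lost without mouse 3, 4, 5 or 8 and with all 24 libraries in 1 fit. Within T cells no gene of these lists passed for NMU. NMU effects differed between ILC2 and T cells for Lifr (against NMUR1+ cells) and Il13ra1 (against both). These calls rest on 0 counts in ILC2 of NMU mice beside 318 and 161 counts in ILC2 of PBS mice, and were lost without 6 or 7 of the 8 mice taken out singly.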

How the data were processed

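The table the authors deposited holds raw read counts, as whole numbers, for each gene in 24 libraries. Reads were aligned with STAR 2.5.3 to mm10, per the submitters' processing notes, and the program that counted reads, its annotation and its strand setting were not stated in the sources used here. Per the labels' protocols, libraries came from a low-input kit that amplifies cDNA without molecular identifiers, so interval and floor values cover counting error only. The sort used CD45, lineage markers, CD90.2, CD127 and KLRG1 for ILC2 and CD45, CD3, CD5 and CD4 for T cells, per the labels. Symbols and coordinates came from RefSeq (GRCm38.p6), the assembly behind mm10. No column of other samples was present (0).

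Tests used the quasi-likelihood method of edgeR 4.0.16, run in R 4.3.3 (filterByExpr with a minimum count of 10, TMM scaling, robust quasi-likelihood fits), with Benjamini-Hochberg adjustment over all genes tested and a threshold of 0.05. NMU and PBS were compared on the 8 libraries of a population, and populations and differences between NMU effects on all 24 libraries with 6 group means. CPM values use TMM-scaled library sizes (factors 0.719 to 1.16). Total counts had a median of 12468364. No pair of replicate libraries agreed within sampling noise (lowest chi-square per degree of freedom 15.5 over 36 pairs). The spread between mice includes that of sorting and library preparation.

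The mouse number pairs the populations because they came from the same animal. Of 24 correlations of same-mouse deviations 13 exceeded 0.1 (range -0.014 to 0.648, median 0.151). Alternatives were DESeq2 1.42.0, limma 3.58.1 voom, DESeq2 size factors, no filter, immunoglobulin genes left out, all 24 libraries in 1 fit for NMU, the mouse as a replicate block, and leaving out each mouse. Leaving out the 4 NMUR1+ libraries above 20% immunoglobulin counts was chosen after seeing the data. It left the NMUR1+ libraries of mice 2 and 3 with NMU and of mice 6 and 8 with PBS. The scripts were tested on simulated data.

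The members and lists were chosen with earlier results of these data known. All 10 genes are named in each comparison. From each other pathway list up to 3 genes per direction were selected by adjusted p, and not all of these are named. The 2 genes most like each of the 10 are named by Pearson r of log2(CPM + 1) after removing group means, among genes with a mean of at least 10 CPM. Lists are described by counts and medians and were not tested as sets. Marker lists are given as counts and sums. A result on 1 pathway gene is not reported here.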

Additional observations from a re-analysis of the deposited data

Results flagged for a closer look

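Of 60 groups of 4 libraries (10 genes in 6 groups), 4 held a library farther from the others than Dixon's 95% critical value of 0.829 allows, where chance alone marks about 1 in 20 groups (5%). Socs1 in NMUR1- cells of PBS mice was low in mouse 6 at 52.8 CPM, beside 87.1 to 90.6 CPM in the other 3. Socs3 in NMUR1+ cells of NMU mice was high in mouse 4 at 73.8 CPM, beside 29.6 to 31.6 CPM. Stat6 in NMUR1+ cells of PBS mice was high in mouse 8 at 183.0 CPM, beside 109.5 to 110.3 CPM. Pim2 in NMUR1- cells of NMU mice was low in mouse 1 at 60.4 CPM, beside 67.2 to 67.7 CPM, a narrow group in which a small gap is enough.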

How the results depend on the processing

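All 10 genes kept their direction and call between ILC2 and NMUR1+ cells in 15 alternatives. Between ILC2 and NMUR1- cells 7 kept their call in 14 alternatives, and Stat3, Stat6 and Pim1 lost it without 1 or 2 mice, as given above. Between the T cell populations 2 of the 10 genes in place of 1 were called with DESeq2, with DESeq2 size factors, with the mouse as a replicate block and without mouse 4, Cish being the second. The block changed no other call of the 10 genes.

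Over all genes, NMU in ILC2 gave 74 calls, 472 with DESeq2, 1053 with 24 libraries in 1 fit and 12 to 63 without 1 mouse. NMU in NMUR1+ cells gave 0, 2 with DESeq2 and 0 to 1 without 1 mouse, and NMU in NMUR1- cells 0 and 21 with DESeq2. NMUR1+ against NMUR1- cells gave 1123, 393 without the 4 immunoglobulin-rich libraries and 609 to 1035 without 1 mouse. Differences of NMU effects between ILC2 and NMUR1+ cells numbered 98, 24 with voom, 54 without a filter, 516 with DESeq2, 46 with the block, 15 without the immunoglobulin-rich libraries and 30 to 106 without 1 mouse. Against NMUR1- cells they numbered 72, 21 with voom, 387 with DESeq2, 36 with the block and 20 to 83 without 1 mouse. The cause was not tested.

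Sign changes touched values that had not passed, as log2 differences. Pim1 for NMU in NMUR1+ cells was -0.16 without the immunoglobulin-rich libraries, with mice 2 and 3 against mice 6 and 8 left. The difference of NMU effects on Cish between ILC2 and NMUR1+ cells was -0.026 without immunoglobulin genes and -0.00 with the block. Without 1 mouse, NMU differences in ILC2 ran from -0.155 to 0.053 for Cish and from -0.026 to 0.442 for Stat5b. In NMUR1+ cells they ran from -0.149 to 0.019 for Cish, from -0.515 to 0.048 for Socs2, from -0.258 to 0.01 for Stat3, from -0.54 to 0.04 for Stat5a, from -0.379 to 0.06 for Stat5b and from -0.255 to 0.339 for Pim1. In NMUR1- cells Stat3 ran from -0.272 to 0.068. Pim1 between the T cell populations ran from -0.235 to 0.013. Differences of NMU effects between ILC2 and NMUR1+ cells ran from -0.084 to 0.031 for Cish, from -0.313 to 0.231 for Socs2, from -0.018 to 0.63 for Stat5b and from -0.081 to 0.628 for Stat6. The log2 ratio of Stat5b to Stat5a ran from -0.04 to 0.187 for ILC2 minus NMUR1+ cells and from -0.125 to 0.157 for ILC2 minus NMUR1- cells. The cause was not tested.

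With 4 mice per group, single mice decided some calls. For Socs3 and NMU in ILC2 the SE of the log2 difference was 0.60, and 0.38 without mouse 1.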

Other observations

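Relations between the log10 share of immunoglobulin counts and the log2 CPM of the 10 genes were computed across mice within each population, 30 in all, and were chosen after the values were seen. None passed after Benjamini-Hochberg adjustment over the 30. The lowest adjusted p belonged to Stat5a in ILC2 (8 mice, Pearson r = -0.90, exact permutation p = 0.0033, adjusted p = 0.099; Spearman rho = -0.81, exact permutation p = 0.0218, adjusted p = 0.346), with r = -0.67 without the 2 mice farthest from the median share. In ILC2 the share was 0.027 to 0.869% in NMU mice and 0.666 to 7.94% in PBS mice, so this relation and treatment cannot be told apart. Stat5a in NMUR1+ cells ran the other way, with r = 0.77 (exact permutation p = 0.0156, adjusted p = 0.194; rho = 0.71, exact permutation p = 0.0576, adjusted p = 0.346), and r = 0.35 without the 2 farthest mice. Socs3 in ILC2 had r = 0.79 (exact permutation p = 0.025, adjusted p = 0.194; rho = 0.67, exact permutation p = 0.0831, adjusted p = 0.415), and r = 0.29 without them. Stat3 in NMUR1- cells had r = 0.79 (exact permutation p = 0.0258, adjusted p = 0.194; rho = 0.71, exact permutation p = 0.0576, adjusted p = 0.346), and r = 0.55 without the 2 farthest mice. Stat3 in NMUR1+ cells had r = 0.58 (exact permutation p = 0.121, adjusted p = 0.403; rho = 0.76, exact permutation p = 0.0368, adjusted p = 0.346), and r = 0.81 without them. In both T cell populations the 3 libraries with the most Stat3 were those of mice 1, 4 and 5, at 1230.0, 1377 and 1375 CPM in NMUR1+ cells and at 1139, 1270.0 and 1238 CPM in NMUR1- cells. The other relations had unadjusted p of 0.05 or more by both measures. Whether admixed cells take part in this was not tested.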
